A study of Mus musculus with 32 samples.

Results

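The 34 genes described here carry fatty acids into heart muscle cells and oxidise them in mitochondria. The list was set by gene name, with earlier results of these data known: transporters and lipases, the carnitine shuttle, the enzymes of beta-oxidation, and the factors that control their transcription. All 34 were among the 27529 genes tested, each through its brightest probe. The 47 probes of these genes were all well above background on all 32 arrays. The array carries Eci1 under its older name Dci and Eci2 as Peci.

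The adult heart takes most of its fuel from long-chain fatty acids. Lipoprotein lipase frees them from circulating particles, CD36 and transport proteins bring them across the membrane, and acyl-CoA synthetase activates them. The carnitine shuttle then moves them into the mitochondrion, where the beta-oxidation spiral shortens them and hands electrons to the respiratory chain through the electron transfer flavoprotein. The nuclear receptor PPAR alpha, the estrogen-related receptor alpha and the PGC-1 coactivators drive the transcription of much of this pathway.

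RNA from whole hearts of 32 individual C57BL/6 mice was measured on 1-colour Agilent arrays, with 4 mice in each of 8 groups. Stressed mice spent 6 h a day in a mesh box within an aggressor's cage, with repeated attacks, as a model of posttraumatic stress disorder, and their controls sat in mesh boxes in a large cage that held no aggressor. The groups were stressed and control mice of 4 conditions, named by exposure and rest in days: T5R1 (exposure 5, rest 1), T5R10 (exposure 5, rest 10), T10R1 (exposure 10, rest 1) and T10R42 (exposure 10, rest 42). Each condition had controls of its own. The questions were what the exposure did to heart RNA after each rest, and whether longer rest or longer exposure differed.

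All 16 cardiomyocyte markers tested were well above background on every array. The 75th percentile signal of the arrays ran from 237 to 499, and pairs of arrays within a group correlated at 0.982 to 0.994. Each slide carried the 8 arrays of 1 condition, and the T10R1 slide was scanned on another day than the other slides, so slide and condition cannot be told apart. Controls filled columns 1 and 2 of every slide and stressed mice columns 3 and 4, and so the effect of stress cannot be told apart from that of the column. Levels below are log2 processed signal minus the array's 75th percentile, a level belongs to its own probe, and changes are stressed minus control on that log2 scale with the standard error (SE, n = 4 per arm). A gene was called at a limma p below 0.05 after Benjamini-Hochberg adjustment over all 27529 genes.

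The probes of 6 genes on which the results below turn are shown so that each measured target can be placed: the 4 genes called under each of 19 alternatives in T5R1, and the genes called in T10R1 and T10R42. Each line is the first 30 of the 60 bases of a probe, at mm9 positions as the array files give them. The annotation of that build was not used here, so exon or intron is not stated. They are chr19:27324050-27324079 (plus strand) for Vldlr, chr5:114700702-114700731 (plus) for Acacb, chr5:30446245-30446274 (minus) for Hadha, chr5:51848958-51848987 (minus) for Ppargc1a, chr7:147291802-147291831 (minus) for Echs1 and chr1:66877703-66877732 (minus) for Acadl.
Vldlr: ctttttcaatggttgggacaatggcaatag
Acacb: cctgaccacttgggtgcgctgaagaggctg
Hadha: ggaagcaggaaaaagaccaaggctagcctt
Ppargc1a: ccccttcaaatggcagcatttccatgaaga
Echs1: actacttcacagtttagtttcgactcacct
Acadl: gtcttacttgtctttcaaattctgaagagc

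In T5R1, a single day after the shorter exposure, 16 of the 34 genes were called lower in stressed hearts and none higher. In RNA from whole hearts, fewer cells of a type and less RNA per cell cannot be told apart. Over all genes, 8.43% were called lower (2320) and 5.3% higher (1458) in this condition, a split that turned to 1155 lower and 1685 higher after scaling to the array median and 1103 lower and 1919 higher after quantile normalisation. The median change of the 34 genes was −0.31, against −0.12 over all genes. It was −0.24, against −0.06, after median scaling, −0.19, against −0.03, after quantile normalisation, and −0.18 in the authors' deposited table. Of the 34, 33 were measured lower, against 66.6% of all genes. In 19 of them every stressed heart lay below every control heart, which held for 15.7% of all genes, and 24 were lower at an unadjusted p below 0.05, against 20.4% of all genes. Of the 34 genes, 26 were among the 2753 genes with the brightest probes, of which 17.0% were called lower and the median change was −0.12.

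**Figure D1:**
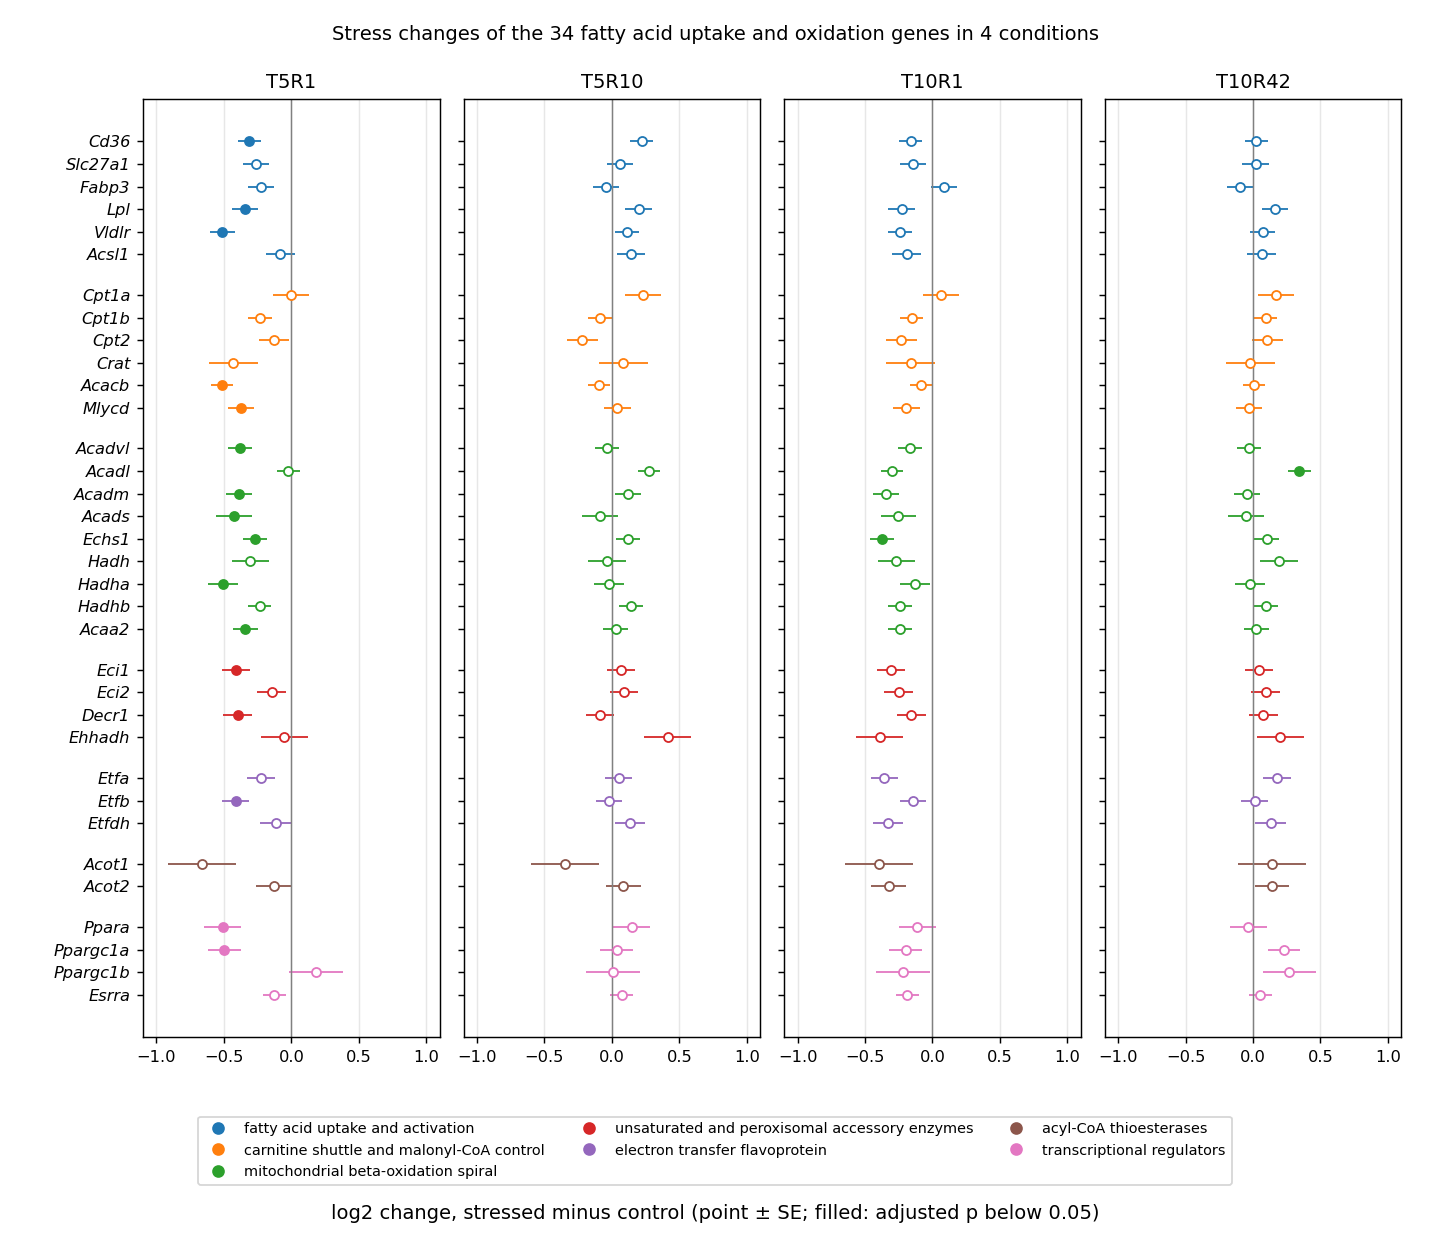
Log2 change, stressed minus control, of each of the 34 genes (rows, coloured by role) in the 4 conditions (panels), as the estimate ± SE with 4 hearts per arm; filled points have an adjusted p below 0.05. In T5R1 there are 16 filled points, all left of 0; T5R10 has none, T10R1 has Echs1 and T10R42 has Acadl.

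Among the genes of uptake and activation, Vldlr, Lpl and Cd36 fell in T5R1, and Slc27a1, Fabp3 and Acsl1 were not called. Vldlr encodes the receptor that takes up triglyceride-rich lipoproteins. It measured 5.54, 5.55, 5.61 and 5.63 in stressed hearts, against 6.08, 6.12, 6.03 and 6.15 in control hearts. The arms lay far apart relative to their spread, with stressed hearts at 70.1% of the control level (−0.51 ± 0.09, adjusted p = 0.00045). Lpl, the lipase that frees fatty acids at the vessel wall, measured 7.65, 7.92, 7.65 and 7.99 in stressed hearts, against 8.01, 8.24, 8.22 and 8.11 in controls. Its change was −0.34 ± 0.10 (adjusted p = 0.0206), with stressed replicate 4 just under the lowest control. Cd36, the main membrane carrier of fatty acids in muscle, measured 4.88, 5.03, 5.05 and 5.15 in stressed hearts, against 5.32, 5.30, 5.41 and 5.33 in controls. No stressed heart reached the controls (−0.31 ± 0.09, adjusted p = 0.015). Slc27a1, another fatty acid transporter, and Fabp3, the heart's cytosolic fatty acid carrier, also had arms that did not overlap, with changes of −0.26 ± 0.10 and −0.23 ± 0.10 (adjusted p = 0.0721 and 0.12). Acsl1, the main acyl-CoA synthetase of the heart, was at −0.08 ± 0.11, and only its stressed replicate 1, at 6.30, lay below all controls.

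No gene of the carnitine shuttle itself was called in T5R1, and both genes that set malonyl-CoA were. No difference between these genes was tested. Acacb encodes the acetyl-CoA carboxylase at the mitochondrial surface that makes malonyl-CoA, the inhibitor of carnitine palmitoyltransferase 1, and Mlycd encodes the decarboxylase that removes it. Acacb measured 4.84, 4.98, 4.80 and 5.05 in stressed hearts, against 5.49, 5.44, 5.48 and 5.33 in controls. Its change of −0.52 ± 0.08 had the lowest adjusted p of the 34 genes (0.000128). Mlycd measured 5.06, 5.36, 5.34 and 5.39 in stressed hearts, against 5.58, 5.57, 5.67 and 5.82 in controls, a change of −0.38 ± 0.10 (adjusted p = 0.0108). RNA for the enzyme that makes malonyl-CoA and for the enzyme that removes it were therefore both lower. Of the transferases, Cpt1b, the muscle form, was at −0.24 ± 0.09 (adjusted p = 0.0743), Cpt2, the inner-membrane form, at −0.13 ± 0.11, and Cpt1a, the liver form, at −0.00 ± 0.13. Crat, which moves acetyl groups onto carnitine, was at −0.43 ± 0.18 (adjusted p = 0.113). Over 19 alternatives Cpt1b was called in 3 and Crat in 1. The dimmer probe of Cpt1b was at −0.35 ± 0.11 (limma adjusted p = 0.0379 over probes).

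The beta-oxidation spiral gave the largest count, with 6 of 9 genes called lower in T5R1 and all 9 measured lower. Its first step is run by acyl-CoA dehydrogenases of falling chain length. Acadvl, for very long chains, fell by 0.38 ± 0.09 (adjusted p = 0.00506), and Acads, for short chains, fell by 0.43 ± 0.13 (adjusted p = 0.031). Acadm, for medium chains, measured 6.98, 7.24, 7.15 and 7.44 in stressed hearts, against 7.66, 7.61, 7.60 and 7.51 in controls (−0.39 ± 0.10, adjusted p = 0.00772). Acadl, for long chains, stood apart from these: it measured 5.08, 5.28, 5.21 and 5.39 in stressed hearts, against 5.34, 5.16, 5.37 and 5.16 in controls. Its arms overlapped, at −0.02 ± 0.08 (adjusted p = 0.887).

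The later steps were lower in part. Echs1 encodes the short-chain enoyl-CoA hydratase, and measured 5.22, 5.48, 5.39 and 5.65 in stressed hearts, against 5.62, 5.74, 5.77 and 5.69 in controls. It was called (−0.27 ± 0.09, adjusted p = 0.0443) with arms that touched, stressed replicate 4 lying above the lowest control. Hadha, the alpha subunit of the trifunctional protein that runs the last 3 steps on long chains, measured 3.55, 3.78, 3.41 and 3.76 in stressed hearts, against 4.22, 4.10, 4.18 and 4.04 in controls (−0.51 ± 0.11, adjusted p = 0.0033). Hadhb, its beta subunit, measured 7.54, 7.93, 7.88 and 8.02 in stressed hearts, against 8.10, 8.07, 8.09 and 8.04 in controls, and was not called (−0.24 ± 0.09, adjusted p = 0.0727). Both subunits had arms that did not overlap. Acaa2, the mitochondrial thiolase, fell by 0.34 ± 0.09 (adjusted p = 0.0137), and Hadh, the short-chain hydroxyacyl-CoA dehydrogenase, was at −0.30 ± 0.14 (adjusted p = 0.139).

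Hadha and Hadhb lie head to head on chromosome 5, and the stretch between their starts is shown because a single short region separates the genes for both subunits. In the RefSeq promoter table of build GRCm38.p6, 28 of the 34 genes had a window of 250 bases before to 50 after the start, 32 windows in all. The starts of Hadha and Hadhb are 272 bases apart and their windows share 228 bases. The 250 bases before the start of Hadhb, chr5:30155003-30155252 on the plus strand, all lie between the starts, and capitals mark the motif GGGCGG, the GC box, on either strand.
Hadhb promoter: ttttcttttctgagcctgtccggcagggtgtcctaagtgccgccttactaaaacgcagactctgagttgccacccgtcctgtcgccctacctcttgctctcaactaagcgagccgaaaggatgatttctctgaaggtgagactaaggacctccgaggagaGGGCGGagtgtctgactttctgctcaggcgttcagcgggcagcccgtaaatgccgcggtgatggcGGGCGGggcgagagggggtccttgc
The GC box was found in 21 of the 32 windows (65.6%), against 35.7% of all 32851 promoter windows. It is a match of letters and not a measured site.

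Electron transfer and the accessory enzymes followed in part. Etfb, a subunit of the electron transfer flavoprotein, measured 7.80, 8.01, 8.33 and 8.23 in stressed hearts, against 8.55, 8.51, 8.51 and 8.46 in controls (−0.41 ± 0.10, adjusted p = 0.00607). Etfa, the other subunit, was at −0.23 ± 0.10 (adjusted p = 0.136), and Etfdh, the dehydrogenase that passes the electrons to ubiquinone, at −0.12 ± 0.11. Eci1, the isomerase needed for unsaturated fatty acids, measured 6.22, 6.37, 6.57 and 6.66 in stressed hearts, against 6.91, 6.84, 7.01 and 6.72 in controls (−0.41 ± 0.10, adjusted p = 0.00855). Decr1, the dienoyl-CoA reductase of the same side path, fell by 0.40 ± 0.11 (adjusted p = 0.0129). Eci2, a related isomerase, was at −0.15 ± 0.11 and Ehhadh, the peroxisomal bifunctional enzyme, at −0.05 ± 0.17. The thioesterases, which release free fatty acid from acyl-CoA, were not called. Acot1, the cytosolic form, had the lowest estimate of the 34 genes, with 1.31, 1.89, 1.64 and 1.90 in stressed hearts, against 2.07, 2.12, 2.59 and 2.59 in controls. No stressed heart reached the controls, but the SE was wide (−0.66 ± 0.25, adjusted p = 0.0795). Acot2, the mitochondrial form, was at −0.13 ± 0.13, and the probes of the pair share no run longer than 6 bases.

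Of the regulators, Ppara and Ppargc1a fell in T5R1. Ppara, the receptor PPAR alpha, measured 3.65, 3.84, 3.84 and 3.68 in stressed hearts, against 4.47, 4.33, 4.22 and 4.03 in controls (−0.51 ± 0.14, adjusted p = 0.0142). Ppargc1a, the coactivator PGC-1 alpha, measured 3.78, 4.02, 4.24 and 4.11 in stressed hearts, against 4.69, 4.63, 4.53 and 4.29 in controls (−0.50 ± 0.12, adjusted p = 0.0072). In both genes the highest stressed heart lay below the lowest control. Ppargc1b, the related coactivator PGC-1 beta, was the gene measured higher, at 0.18 ± 0.20, and Esrra, the estrogen-related receptor alpha, was at −0.13 ± 0.09; neither was called.

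The nuclear receptor half-site AGGTCA, the element shared by PPAR, retinoid X and estrogen-related receptors, was searched on both strands of the same windows because Ppara and Ppargc1a were lower. It was in 6 of the 32 windows (18.8%), those of Acacb, Acadm, Acadvl, Cd36, Cpt1a and Echs1, against 16.3% of all windows, so the share was close to the background. The longer elements that contain it, TCAAGGTCA and a direct repeat of the half-site with 1 base between, were in none of the 32 windows and in 0.42% and 0.04% of all windows. Matches are shown in capitals within 30 bases of the gene's own strand, for the 4 genes where they lay before the start and the window was not printed whole. Their positions in GRCm38.p6 are chr11:70015498-70015527 (minus strand) for Acadvl, chr5:17836107-17836136 (minus) for Cd36, chr19:3323195-3323224 (plus) for Cpt1a and chr7:140116487-140116516 (minus) for Echs1.
Acadvl: atggatcaccctAGGTCAggtagaatacag
Cd36: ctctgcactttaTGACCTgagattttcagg
Cpt1a: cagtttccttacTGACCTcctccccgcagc
Echs1: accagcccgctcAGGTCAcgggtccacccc
Acadm, the gene called lower in T5R1 whose match lay farthest out, has it 249 bases before the start. Its 250 bases are chr3:153944644-153944893 on the minus strand.
Acadm promoter: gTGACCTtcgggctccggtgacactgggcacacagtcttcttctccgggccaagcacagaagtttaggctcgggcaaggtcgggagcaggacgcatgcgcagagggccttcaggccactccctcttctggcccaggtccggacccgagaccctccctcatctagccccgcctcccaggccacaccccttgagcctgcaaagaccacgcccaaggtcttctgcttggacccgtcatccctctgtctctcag
Of the 6 genes with a match, Cpt1a was not called in T5R1. Acacb, whose match lay after the start, Acadm, Acadvl, Cd36 and Echs1 were called lower, as were 8.43% of all genes. Whether a match goes with a call was not tested.

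The count of 16 in T5R1 was 8 after quantile normalisation, 9 in the authors' value table, 10 after scaling to the array median and 7 with the condition fitted alone, and 8 without stressed replicate 1, whose mean over the 34 genes was the lowest. The calls lost without that array were Cd36, Lpl, Mlycd, Acads, Echs1, Acaa2, Decr1 and Ppara. Over 19 alternatives Vldlr, Acacb, Hadha and Ppargc1a were called in every run, whereas the call of Echs1 was lost in 14, Acads in 9, Lpl in 8, Cd36 in 6 and Acaa2 in 5.

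**Figure D2:**
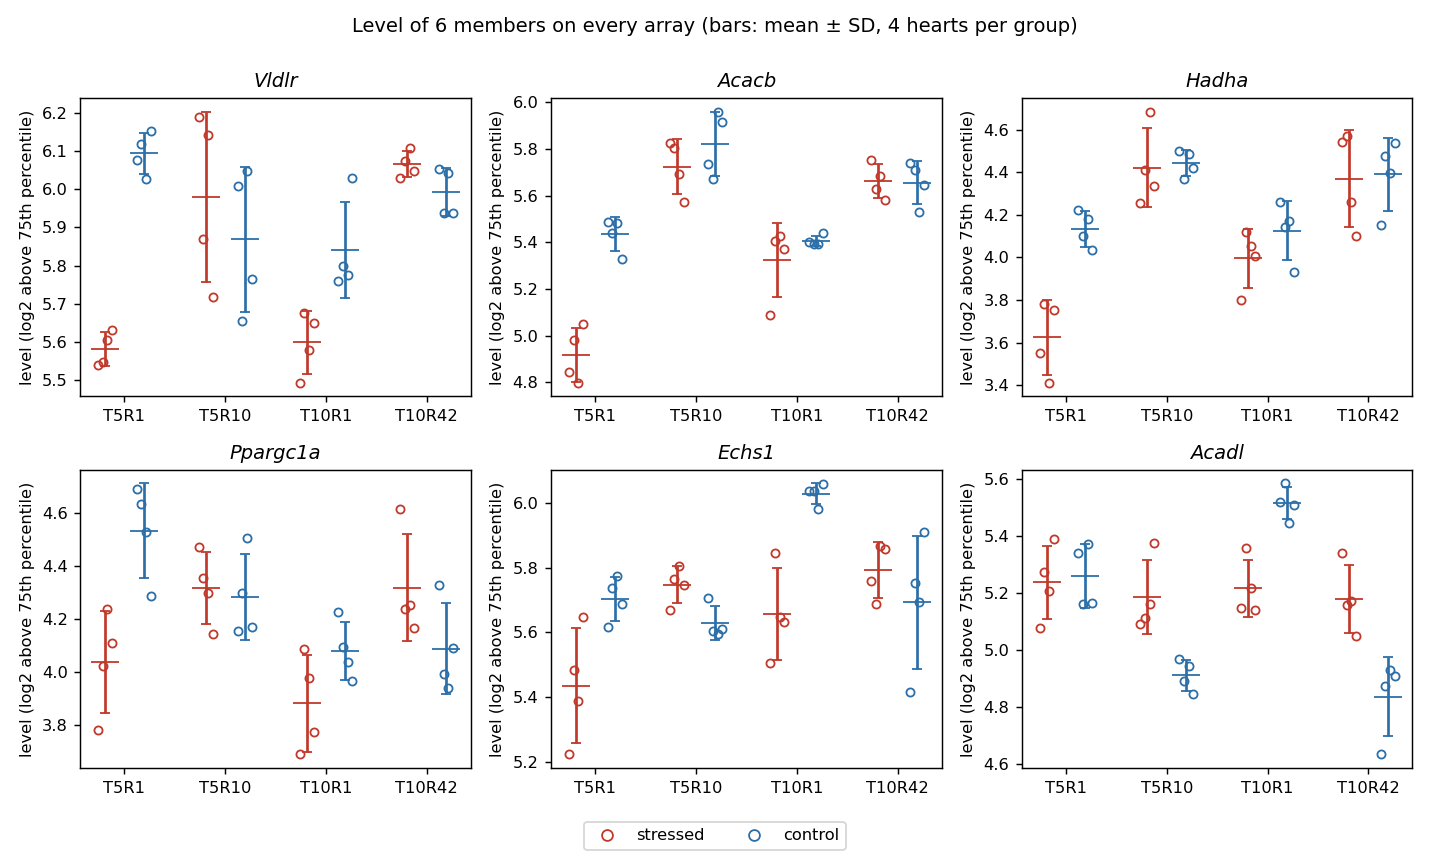
Level of 6 of the genes on every array (y axis, log2 processed signal above the array's 75th percentile), stressed hearts left of control hearts in each condition; bars are mean ± SD of 4 hearts. In T5R1 the arms of Vldlr, Acacb, Hadha and Ppargc1a do not overlap, and Acadl had stressed means between 5.18 and 5.24 in all 4 conditions with control means from 4.84 to 5.52.

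In T10R1, a single day after the longer exposure, 1 of the 34 genes was called lower and none higher, where 0.36% of all genes were called lower and 0.774% higher. The gene was Echs1, with 5.50, 5.85, 5.65 and 5.63 in stressed hearts, against 6.04, 6.04, 5.98 and 6.06 in controls. Every stressed heart was lower (−0.37 ± 0.09, adjusted p = 0.0371). The control mean of Echs1 was 6.03 here, and 5.70, 5.63 and 5.69 in T5R1, T5R10 and T10R42. Its stressed mean was 5.66 here, and 5.43, 5.75 and 5.79 there. Such levels across conditions cannot be told apart from the slide. The median change of the 34 genes was −0.22, against 0.00 over all genes and −0.07 over the 2753 genes with the brightest probes. Of the 34, 32 were measured lower, where 50% of all genes were. Fabp3, at 0.09 ± 0.10, and Cpt1a, at 0.06 ± 0.13, were the genes measured higher. In 12 genes the arms did not overlap with stressed hearts lower, which held for 5.48% of all genes, and 14 genes were lower at an unadjusted p below 0.05, against 6.76% of all genes.

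The genes nearest to a call in T10R1 were again in the spiral and in electron transfer. Acadl measured 5.15, 5.36, 5.22 and 5.14 in stressed hearts, against 5.52, 5.59, 5.45 and 5.51 in controls. Its arms did not overlap (−0.30 ± 0.08, adjusted p = 0.0817). Acadm measured 7.22, 7.57, 7.32 and 7.20 in stressed hearts, against 7.70, 7.76, 7.52 and 7.70 in controls (−0.34 ± 0.10, adjusted p = 0.082), and stressed replicate 2 lay among the controls. Etfa measured 6.94, 7.36, 7.19 and 7.14 in stressed hearts, against 7.65, 7.56, 7.43 and 7.42 in controls (−0.36 ± 0.10, adjusted p = 0.0896). Etfdh and Eci1 had arms that did not overlap, at −0.33 ± 0.11 and −0.30 ± 0.10 (adjusted p = 0.169 each). Hadha, Acacb and Ppara, each lower by 0.51 to 0.52 in T5R1, had estimates of −0.13 ± 0.11, −0.08 ± 0.08 and −0.11 ± 0.14 here. The call of Echs1 was lost in 12 of 19 alternatives, among them the removal of any single control, or of stressed replicate 1, 3 or 4 (adjusted p from 0.0635 to 0.164). Without stressed replicate 2, the count was 3.

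The stress effects of T10R1 and T5R1 were also set against each other. None of the 34 genes was called for this difference with limma, where 0.592% of all genes were, so the count of 1 in T10R1 beside 16 in T5R1 is no test that the conditions differed. The T5R1 stressed hearts had a mean deviation from their controls over the 34 genes of −0.51, −0.24, −0.24 and −0.17, and the T10R1 stressed hearts of −0.37, −0.07, −0.19 and −0.24. In both conditions stressed replicate 1 was lowest, though these numbers do not link mice across conditions. That array lay in row 2 and column 4 of its slide in both, so the mouse and the array position cannot be told apart. In all, 31 genes were measured lower in both.

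In T5R10, when the shorter exposure had been followed by 10 days of rest, none of the 34 genes was called with limma, where 0.0763% of all genes were called in either direction. At an unadjusted p below 0.05, 3 were higher (Acadl, Cd36 and Ehhadh) and none lower, against 6.49% and 7.47% of all genes. The median change was 0.06, against −0.02 over all genes, and 11 were measured lower, against 53.9% of all genes. Among the 2753 genes with the brightest probes, which held 26 of the 34, the median change was 0.04. Cd36 measured 5.43, 5.30, 5.57 and 5.46 in stressed hearts, against 5.28, 5.21, 5.21 and 5.17 in controls (0.22 ± 0.09, adjusted p = 0.234). Acadl measured 5.09, 5.11, 5.16 and 5.38 in stressed hearts, against 4.97, 4.89, 4.94 and 4.85 in controls (0.27 ± 0.08, adjusted p = 0.148). In these 2 genes every stressed heart lay above every control, which held for 2.6% of all genes. Ehhadh was at 0.41 ± 0.17 (adjusted p = 0.284), with arms that overlapped. The scanner software marked 3 of these arrays for evaluation, control replicate 4 and stressed replicates 1 and 2, and without them the count was also 0, while that over all genes was 1085 in place of 21.

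In T10R42, when the longer exposure had been followed by 42 days of rest, 1 gene was called higher and none lower, where 0.287% of all genes were called higher and 0.61% lower. This was Acadl, with 5.34, 5.16, 5.17 and 5.05 in stressed hearts, against 4.63, 4.88, 4.93 and 4.91 in controls (0.34 ± 0.08, adjusted p = 0.0454). It was the gene whose stressed hearts all lay above the controls, which held for 4.15% of all genes. The stressed level of Acadl was close to that in the other conditions, and the controls were the ones that differed: its mean was 5.24, 5.19, 5.22 and 5.18 in stressed hearts of T5R1, T5R10, T10R1 and T10R42, and 5.26, 4.91, 5.52 and 4.84 in their controls. Since each condition had its own slide, a level set across conditions cannot be told apart from the slide. The call was lost in 14 of 19 alternatives, among them the removal of any control or of stressed replicate 1, 3 or 4 (adjusted p from 0.0668 to 0.127). The median change was 0.07, against −0.03 over all genes, and 8 genes were measured lower, against 55.5% of all genes. Among the 2753 genes with the brightest probes, which held 26 of the 34, the median change was 0.02.

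Whether the stress effect differed with longer rest was tested directly. Between T5R10 and T5R1, 5 of the 34 genes had a higher effect after the longer rest and none a lower one, where 1.18% of all genes were called higher and 1.31% lower. They were Vldlr (difference 0.62 ± 0.13, adjusted p = 0.00882), Lpl (0.54 ± 0.14, adjusted p = 0.0358), Cd36 (0.53 ± 0.12, adjusted p = 0.016), Acadm (0.51 ± 0.14, adjusted p = 0.0441) and Acacb (0.42 ± 0.12, adjusted p = 0.0491). For Vldlr the change was 0.11 in T5R10 and −0.51 in T5R1. It was 0.22 and −0.31 for Cd36, 0.20 and −0.34 for Lpl, 0.12 and −0.39 for Acadm, and −0.10 and −0.52 for Acacb. So the genes of lipoprotein and fatty acid uptake made up 3 of the 5. Vldlr was called in all 27 alternatives of this difference, whereas Cd36 was lost in 4, Lpl in 16 and Acacb and Acadm in 20 each. The count was 2 after median scaling and without the marked arrays, 1 after quantile normalisation and 8 without T5R1 stressed replicate 4. Both conditions enter this difference with controls of their own.

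Between T10R42 and T10R1, 3 genes had a higher stress effect after the longer rest and none a lower one, where 1.89% of all genes were called higher and 2.23% lower. They were Acadl (0.64 ± 0.12, adjusted p = 0.00863), Etfa (0.53 ± 0.14, adjusted p = 0.0384) and Echs1 (0.47 ± 0.13, adjusted p = 0.0383). The changes were 0.34 in T10R42 and −0.30 in T10R1 for Acadl, 0.18 and −0.36 for Etfa, and 0.10 and −0.37 for Echs1. For Echs1 the control mean was 5.69 in T10R42 and 6.03 in T10R1, and the stressed mean 5.79 and 5.66. For Etfa the control means were 7.29 and 7.51, and the stressed means 7.47 and 7.16. The controls of each condition lay on its own slide. Acadl was called in all 26 alternatives, Etfa was lost in 13 and Echs1 in 17. No gene was called in both differences.

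Averaged over the 4 conditions, 6 genes were called lower and none higher, where 7.3% of all genes were called lower and 5.26% higher. Acads fell by 0.21 ± 0.07, Acacb by 0.17 ± 0.04, Hadha by 0.17 ± 0.06, Acadm by 0.17 ± 0.05, Acadvl by 0.15 ± 0.04 and Vldlr by 0.14 ± 0.05 (adjusted p from 0.00746 to 0.0451). For all 6 the T5R1 estimate was the lowest of the 4. Over 43 alternatives the call of Acacb was lost in 1, Acadvl in 4, Acadm in 5, Vldlr and Acads in 20 each and Hadha in 28.

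Of the 34 genes, 12 had several probes, 25 in all, and these gave a measure of how far a change depends on the probe. In T5R1 both probes of Lpl (−0.34 and −0.36), Vldlr (−0.51 and −0.49) and Ppargc1a (−0.50 and −0.46) passed an adjusted p of 0.05 over probes. Acacb did so by its brighter probe (−0.52 ± 0.08), and its other probe was at −0.35 ± 0.13 (adjusted p = 0.0862). Ppara had 3 probes, at −0.51, −0.46 and −0.56, of which the second was at an adjusted p of 0.0715. Decr1 did not hold across probes: the brighter was at −0.40 ± 0.11 and the other at −0.01 ± 0.12. Etfa and Cpt1b went the other way, the dimmer probe passing at −0.50 ± 0.16 and −0.35 ± 0.11 (adjusted p = 0.0386 and 0.0379) where the brighter did not. The dimmer probe of Decr1 was at −0.35 ± 0.12 in T10R1, 0.30 ± 0.12 in T5R10 and 0.30 ± 0.12 in T10R42, none of them called.

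**Figure D3:**
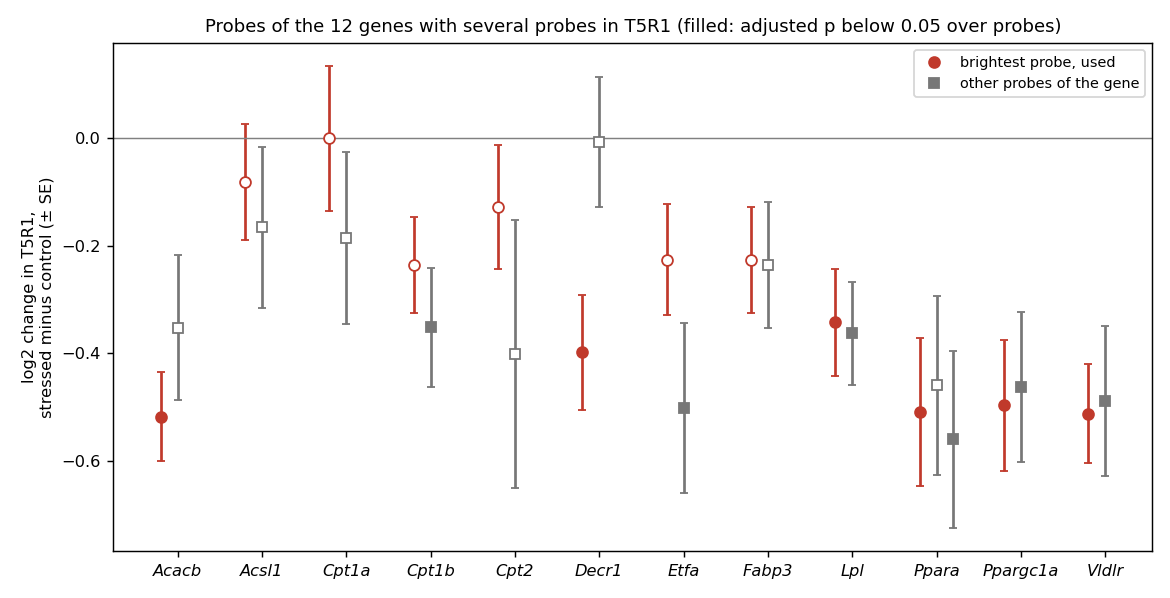
Log2 change in T5R1, stressed minus control, ± SE, for each probe of the 12 genes with several probes; circles are the brightest probe, which the gene's value rests on, and filled marks have an adjusted p below 0.05 over probes. The probes of Lpl, Vldlr and Ppargc1a lie within 0.04 of each other, and those of Decr1 are at −0.40 and −0.01.

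Fabp3 shows what a difference between nearly identical probes can be. Its probes share 51 of 60 bases, of which the first 30 are at chr4:129992652-129992681 on the plus strand in mm9 and are shown as the sequence common to both.
Fabp3, shared by both probes: taaaactgtatccaaagggtgctccaaggt
The changes were −0.23 and −0.24 in T5R1, −0.04 and −0.26 in T5R10, 0.09 and −0.13 in T10R1, and −0.09 and −0.07 in T10R42. None was called, and they lay up to 0.22 apart over sequence that was mostly the same.

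Genes around the pathway were read in the same way. Of all genes, 8.43% were called lower and 5.3% higher in T5R1, and 0.36% and 0.774% in T10R1. Of 24 other tested genes of fatty acid handling, 4 fell and 2 rose in T5R1. Acsl6, a brain-type acyl-CoA synthetase, fell by 0.42 ± 0.10 (adjusted p = 0.00742), Acot7, an acyl-CoA thioesterase, by 0.40 ± 0.11 (adjusted p = 0.0136) and Hsd17b10, a mitochondrial hydroxyacyl-CoA dehydrogenase, by 0.37 ± 0.08 (adjusted p = 0.0046). Acsl5, another synthetase, rose by 0.39 ± 0.13 (adjusted p = 0.0455). Named after their values were seen, Acss1, the mitochondrial acetate-activating enzyme, fell by 0.34 ± 0.07 and Fabp5, a fatty acid binding protein, rose by 0.36 ± 0.09 (adjusted p = 0.00122 and 0.0112). In T10R1, 3 of the 24 fell: Acat1, the acetyl-CoA thiolase that also serves ketone bodies, by 0.66 ± 0.16, Acad11 by 0.39 ± 0.07 and Acss1 by 0.32 ± 0.07 (adjusted p = 0.0363, 0.00971 and 0.0186). Without stressed replicate 1 the change of Acat1 was −0.38 (adjusted p = 0.0842), and without any one control or stressed replicate 4 its adjusted p was 0.0579 to 0.0936. Acss1 in T10R1 was not called without stressed replicate 1 or control replicate 1 or 4 (adjusted p from 0.0582 to 0.0966). In T5R1, Acsl5 was called in 2 of the 8 fits that left out 1 array, and Acot7 was not called without control replicate 3 or stressed replicate 1 (adjusted p = 0.0559 and 0.0502). Of 17 genes of peroxisomal oxidation, 5 fell in T5R1, among them Pex11a by 0.41 ± 0.09 and Phyh, which starts the breakdown of phytanic acid, by 0.35 ± 0.07 (adjusted p = 0.00182 and 0.00133). Of 21 genes of lipid droplets and triglyceride turnover, 3 fell: Plin4, a droplet coat protein, by 0.75 ± 0.12, Dgat2, which makes triglyceride, by 0.50 ± 0.10 and Plin3 by 0.32 ± 0.11 (adjusted p = 0.000145, 0.00164 and 0.0447). Plin3 was called in 1 of the 8 fits that left out 1 array.

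PPAR targets outside the 34 genes were also read in T5R1, where 8.43% of all genes were called lower and 5.3% higher. Pdk4, the kinase that closes pyruvate dehydrogenase when fat is burned, was at −0.93 ± 0.32 (adjusted p = 0.0509), Angptl4, an inhibitor of lipoprotein lipase, at −0.36 ± 0.53 and Ucp3, a mitochondrial carrier, at −0.03 ± 0.18, and none of these 3 was called. Of 25 partners of the regulators, 6 fell in T5R1, among them Rxra, the retinoid receptor that pairs with PPAR alpha, by 0.48 ± 0.13 (adjusted p = 0.016, or 0.0684 without control replicate 2 and 0.0678 without stressed replicate 1), Perm1, a regulator of muscle mitochondria, by 0.46 ± 0.09 (adjusted p = 0.00144), and Esrrb by 0.38 ± 0.08 (adjusted p = 0.0014). None of the lists named here had a call in T5R10 or T10R42.

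Neighbouring fuel pathways were lower as well. The share of all genes called lower was 8.43% in T5R1 and 0.36% in T10R1. In T5R1, 9 of 14 genes of the tricarboxylic acid cycle, 18 of 40 of oxidative phosphorylation and 10 of 19 of branched-chain amino acid breakdown were called lower and none higher, with medians of −0.33, −0.26 and −0.33, beside 16 of 34 and −0.31 for the fatty acid genes. In T10R1 the counts were 1, 0 and 3, beside 1, with medians of −0.20, −0.18 and −0.27, beside −0.22. All of these lists had 0 calls in T5R10 and in T10R42, where the fatty acid genes had 0 and 1. No test of a difference between the lists was run. Among these genes Cox7a1, a muscle subunit of cytochrome oxidase, fell by 0.50 ± 0.09, Bckdha, of the branched-chain ketoacid dehydrogenase, by 0.52 ± 0.09, and Idh2, the mitochondrial isocitrate dehydrogenase, by 0.48 ± 0.09 in T5R1 (adjusted p = 0.000663, 0.000476 and 0.000931).

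**Figure D4:**
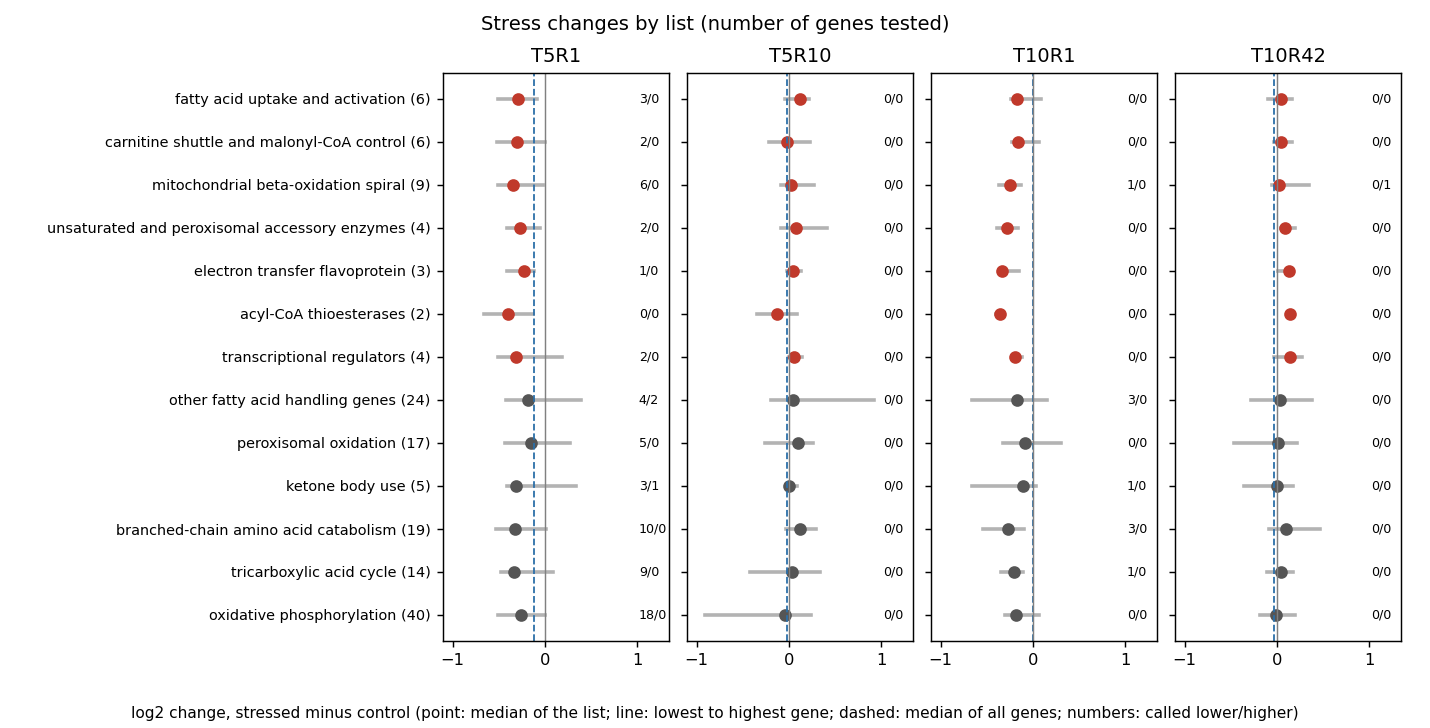
Log2 change, stressed minus control, by list in the 4 conditions: red points are the median of each role of the 34 genes, grey points that of neighbouring pathways, bars run from the lowest to the highest gene, and the dashed line is the median of all genes. Numbers at the right give genes called lower and higher; in T5R1 the beta-oxidation spiral has 6 of 9, the tricarboxylic acid cycle 9 of 14 and oxidative phosphorylation 18 of 40 called lower.

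Fibroblast and macrophage markers differed between the arms in the conditions with 1 day of rest. In T5R1, 2 of 16 cardiomyocyte markers were called lower and none higher (median −0.21), where 8.43% of all genes were called lower and 5.3% higher. Of the 2753 genes with the brightest probes, 17.0% were called lower. The summed level of cardiomyocyte markers ran from 6792 to 9257 in stressed hearts, against 8951 to 9400 in controls. Of 14 fibroblast markers 7 rose and of 14 macrophage markers 9 rose, with medians of 0.35 and 0.62. The summed fibroblast level was 731 to 1182 in stressed hearts, against 597 to 668 in controls, and that of macrophages 57.3 to 104, against 46.3 to 52.8. In T10R1, 9 fibroblast markers and 1 macrophage marker rose (medians 0.67 and 0.33), and no cardiomyocyte marker was called (median −0.12). Of all genes, 0.774% were called higher and 0.36% lower in that condition. Stressed replicate 1 of T5R1, lowest of its group for the 34 genes, was also lowest for cardiomyocyte markers (−0.38) and highest for fibroblast and macrophage markers (1.48 and 1.18). Of 13 genes of dividing cells 11 rose in T5R1 and 1 in T10R1, of 7 heart stress genes 4 and 3 rose, and of 15 endothelial markers none was called. All tested markers of the cardiomyocyte, fibroblast and macrophage lists were above background in some arrays of every group. The part of these cell types in the fatty acid results was not tested.

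**Figure D5:**
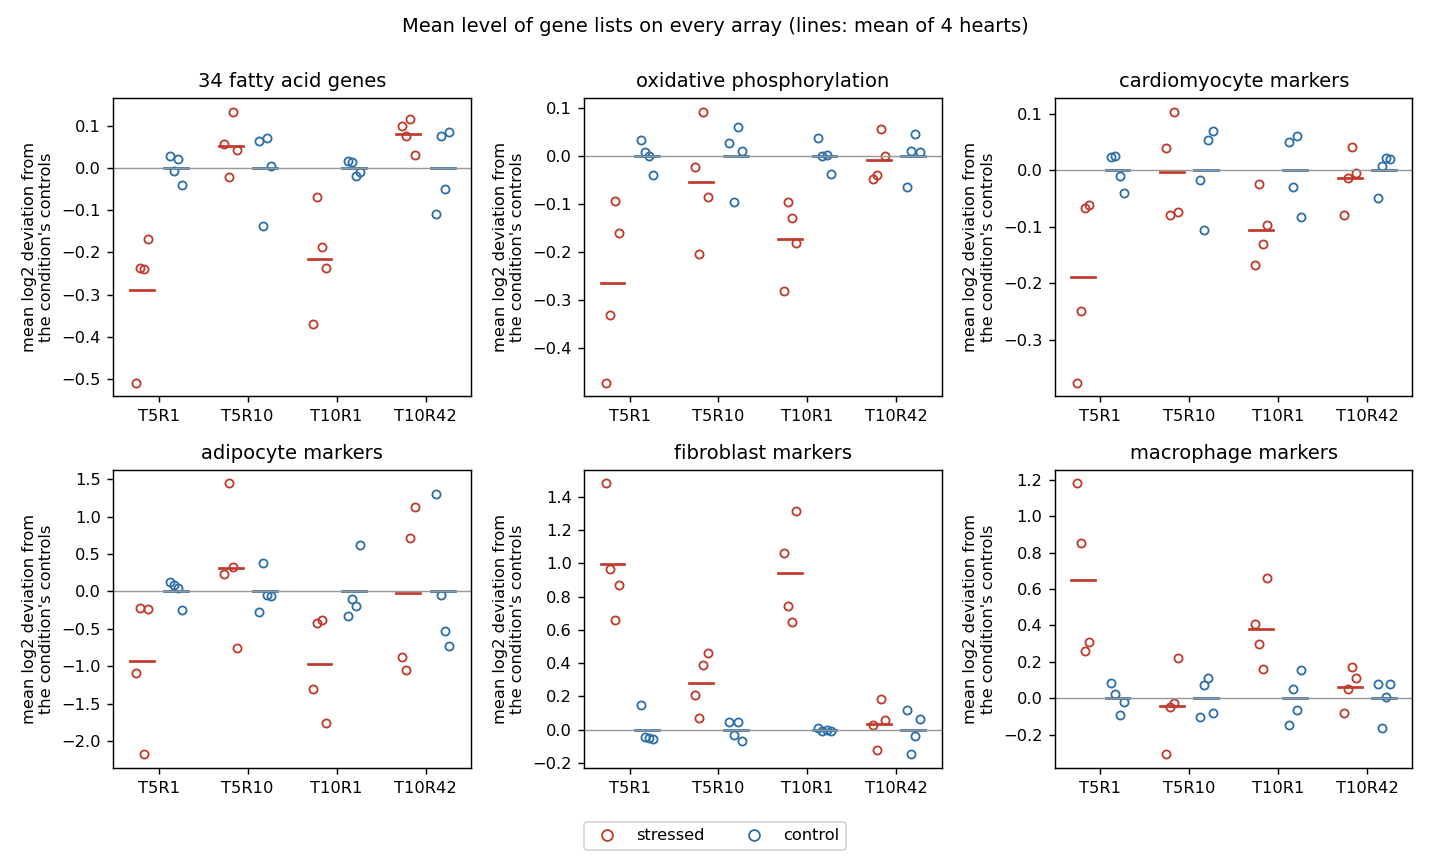
Mean log2 deviation of each list from the mean of its condition's controls, for every heart, stressed left of control, with lines at the mean of 4 hearts. The 34 fatty acid genes lie between −0.51 and −0.17 in T5R1 stressed hearts and between 0.03 and 0.11 in T10R42 stressed hearts, and adipocyte markers range from −2.18 to 1.44 over stressed hearts.

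Adipocytes also make Cd36 and Lpl, and RNA of fat markers varied widely between hearts. The adipocyte marker Adipoq ranged over the 32 arrays from −2.15 to 2.48, and Ucp1, the marker of brown fat, from −6.88 to 5.22, well above background on 27 arrays. The mean deviation of adipocyte markers in T5R1 stressed hearts was −1.09, −0.22, −2.18 and −0.24, and in T10R1 stressed hearts −1.30, −0.42, −0.38 and −1.76. All 13 tested adipocyte markers were measured lower in each of these conditions, 1 of them called in T5R1 (Slc2a4, the insulin-regulated glucose transporter, which cardiomyocytes also express) and none in T10R1. Their summed level was 264 to 346 in stressed hearts of T5R1, against 346 to 399 in controls, and 269 to 359 in stressed hearts of T10R1, against 347 to 407 in controls. With the adipocyte mean as a covariate, chosen after seeing the data, 14 of the 34 genes were called lower in T5R1, none in T10R1 and 1 higher in T10R42, and the T5R10 minus T5R1 difference had 2 calls.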

How the data were processed

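All 32 arrays carried Cy3-labelled heart RNA of single mice, per the labels. Spot intensity came from scanner files that the authors deposited, detrended spatially and multiplicatively by Agilent Feature Extraction, version 10.7.3.1, per the file headers, with probe positions on mm9. The flags of 0 or 1 per spot are also as deposited. The authors' deposited value table holds log2 values and served only as an alternative. Its columns correlated at 0.99951 or more with the log2 mean signal, and once sorted lay within 0.00534 of the mean of their condition. Its column medians were 6.224 for T5R1, 6.259 for T5R10, 5.854 for T10R1 and 6.027 for T10R42, and it was neither centred by gene nor a ratio.

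Each array had 62976 spots, of which 3671 control spots were dropped. Over the 32 arrays together, 5470 values of other spots flagged as outliers were left out, each on its own array. Repeated spots were averaged to 55681 probes, none of them saturated. Names came from RefSeq accessions for 26413 probes, from another probe of the same name for 574 and from the array for 28694. To be kept, a probe had to be well above background on 3 of the 4 arrays of some group and could lack a value on no more than 4 arrays, which left 38820 probes; the brightest stood for its gene. Signals were divided by the 75th percentile of their array and put on the log2 scale. Means of the 8 groups were fitted with limma (version 3.58.1, in R 4.3.3), with 24 residual and 2.28 prior degrees of freedom and two-sided tests, and the scripts were tested on simulated data. The number of mice limits the precision.

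The members and lists were chosen with earlier results of these data known. Named genes were all 34 members, up to 4 called genes of each other list per condition or the 2 with the smallest p, and Pdk4, Ucp3, Angptl4, Col1a1 and Myh7. Some genes that this rule names are not reported here. Alternatives changed the background correction, normalisation, scaling, probe filter and probe rule, used the authors' table, added blocks or the adipocyte mean, fitted conditions alone or left out arrays.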

Additional observations from a re-analysis of the deposited data

Results flagged for a closer look

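The stress effect differed between rests, by a limma test of the difference itself, for 8 gene and contrast pairs. T5R10 minus T5R1 was 0.62 for Vldlr, 0.54 for Lpl, 0.53 for Cd36, 0.51 for Acadm and 0.42 for Acacb. T10R42 minus T10R1 was 0.64 for Acadl, 0.53 for Etfa and 0.47 for Echs1. All are log2 values, and the adjusted p of each is given above.

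In 17 of 272 groups of 4 hearts, 1 heart lay far from the other three by Dixon's gap test, where chance gives about 1 in 20. In stressed hearts of T5R1, replicate 1 was lowest for Mlycd (5.06) and Eci2 (5.10). In stressed hearts of T10R1, replicate 1 was lowest for Acacb (5.09), Etfb (8.06) and Esrra (5.62), and replicate 2 was highest for Crat (0.42) and Acot2 (1.11). Elsewhere in stressed hearts, replicate 4 was highest for Acot1 in T5R10 (2.72) and lowest for Acadm in T10R42 (7.49). In control hearts of T10R1, replicate 4 was highest for Vldlr (6.03), and replicate 3 was highest for Ppargc1b (1.62) and lowest for Eci2 (5.71). In control hearts of T5R10, replicate 4 was highest for Acsl1 (6.74), replicate 1 highest for Echs1 (5.71) and replicate 2 lowest for Acaa2 (8.43). In the remaining control hearts, replicate 3 of T5R1 was lowest for Decr1 (7.29) and replicate 2 of T10R42 was highest for Etfa (7.40).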

How the results depend on the processing

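Of 2618 results of single members in the 4 conditions under the alternatives, 2520 kept their side of the threshold, 85 lost a call, 13 gained one and none reversed a call, while 118 uncalled estimates changed sign. Members called were 16 in T5R1, 0 in T5R10, 1 in T10R1, 1 in T10R42, 6 for the mean, 5 for T5R10 minus T5R1 and 3 for T10R42 minus T10R1, and all genes called 3778, 21, 312 and 247 in the 4 conditions. In T5R1 members called were 8 after quantile normalisation, 10 after median scaling, 9 in the authors' value table and 7 with the condition fitted alone. The T5R1 median of −0.31 was −0.19 after quantile normalisation and −0.18 in the authors' table. In T10R1 members called were 2 with normexp, the authors' table or the slide row as a block, and 0 with quantile normalisation, no filter, the condition alone or the adipocyte covariate. In T10R42 they were 0 with normexp, the authors' table, no filter, the mean over probes, the condition alone or the slide row. For the mean of the conditions they were 2 with quantile normalisation or the authors' table, 1 with median scaling, 3 with no filter and 10 with probes above background on all arrays. For T5R10 minus T5R1 they were 2 with normexp, median scaling, no filter, the adipocyte covariate or the marked arrays left out, and 1 with quantile normalisation or the authors' table. For T10R42 minus T10R1 they were 6 with median scaling and 1 with no filter.

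All genes called in T5R10 were 86 with quantile normalisation, 8 with median scaling, 33 in the authors' table, 9 with no filter, 39 with probes above background on all arrays, 0 with the condition alone, 9 with the slide row, 1085 without the marked arrays and 10 with the adipocyte covariate. In T10R1 they were 185 with quantile normalisation, 181 with no filter, 4 with the condition alone and 158 with the covariate. In T10R42 they were 97 with normexp, 375 with quantile normalisation, 127 in the authors' table, 119 with no filter, 404 with probes above background on all arrays and 0 with the condition alone. Lower and higher calls were 99 and 213 in T10R1, 110 and 131 after median scaling and 40 and 145 after quantile normalisation. They were 168 and 79 in T10R42, 118 and 198 after median scaling and 180 and 195 after quantile normalisation.

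The deviations of same-numbered stressed and control hearts from their group means correlated at −0.266 to 0.214. The correlation was over 0.1 for 1 such pair in T5R1, 3 in T5R10, 0 in T10R1 and 1 in T10R42. These values do not settle whether the numbers pair the mice, and the main fit took no pairs. With the replicate number as a block, members called were 14 in T5R1, 0 in T5R10, T10R1 and T10R42, 5 for the mean, 2 for T5R10 minus T5R1, 1 for T10R42 minus T10R1 and 0 for T10R1 minus T5R1, and all genes called were 3489, 0, 211 and 249.

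Leaving out 1 array gave 8 to 18 members in T5R1, 0 to 0 in T5R10, 0 to 3 in T10R1, 0 to 1 in T10R42, 3 to 10 for the mean, 2 to 8 for T5R10 minus T5R1, 1 to 3 for T10R42 minus T10R1 and 0 to 1 for T10R1 minus T5R1. All genes called ran from 2178 to 3835 in T5R1, 5 to 606 in T5R10, 86 to 298 in T10R1 and 34 to 1444 in T10R42. The medians ran from −0.36 to −0.23, 0.02 to 0.11, −0.26 to −0.17 and 0.03 to 0.10. The cause of these shifts was not tested. All member probes were above background on all arrays, and in T5R1 the SE was 0.17 for Ehhadh, 0.18 for Crat and 0.20 for Ppargc1b.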
